A study of Mus musculus with 10 samples.

Results

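Prostaglandin synthases and receptors were followed as 10 genes of the 28987 listed: the phospholipase Pla2g4a, the cyclooxygenases Ptgs1 and Ptgs2, the terminal synthases Ptges, Ptgis and Ptgds, and the receptors Ptger2, Ptger3, Ptger4 and Ptgfr. They were chosen by symbol, as named steps of the pathway, and all 10 were found. The choice was made with earlier results of these data known, so counts set beside shares of all genes are a description and no test. RNA sequencing was done on 10 libraries from cultures that the labels call primary white adipocytes, obtained by collagenase and dispase digestion of inguinal fat from male C57BL/6 mice aged 6 to 8 weeks and grown to confluence. Each of 5 groups held 2 libraries and was kept for 24 h with 1 agent. The agents were saline, BAFF or APRIL (recombinant proteins of the TNF superfamily, at 500 ng/ml), lipopolysaccharide (LPS, a bacterial cell-wall component, at 100 ng/ml) and norepinephrine at 1 mM. By their labels, all groups share the strain, sex and depot, and none carries an engineered allele. For the libraries labelled APRIL, the Y-linked genes given below go against the labelled sex. The treatment text speaks of tissue where the source names adipocytes. Neither a step of adipocyte differentiation nor the number of animals behind a culture is stated, so p-values measure the spread between these libraries, which may be technical.

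Prostaglandins are short-lived lipid signals made from arachidonic acid. Cytosolic phospholipase A2 frees arachidonic acid from membranes, a cyclooxygenase turns it into the unstable prostaglandin H2, and a terminal synthase turns that into one of several active prostanoids. These act through G-protein-coupled receptors on the same or neighbouring cells. In fat, prostaglandin E2 is known as a brake on lipolysis through the receptor EP3 and as a regulator of adipocyte formation, and it is a mediator of inflammation in many tissues.

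The cyclooxygenase genes Ptgs1, usually described as constitutive, and Ptgs2, usually described as inducible, differ in the bases before their start sites, as does Ptges, whose product makes prostaglandin E2. The 250 bases upstream of the RefSeq start are shown for these 3 genes because the results below turn on them (RefSeq, GRCm38.p6, 5′ to 3′ on the gene's own strand). They lie at chr2:36230176-36230425 on the plus strand for Ptgs1, chr1:150099781-150100030 on the plus strand for Ptgs2 and chr2:30903298-30903547 on the minus strand for Ptges. Capitals mark matches, on either strand, to any of 6 motifs: TGACG, the core of the cAMP response element, CACGTG, an E-box, TTGCNNAA, a C/EBP-type motif, an NF-kB-type motif of 10 bases given by name alone, GGGCGG, the GC box, and TATAAA, the TATA box.
Ptgs1: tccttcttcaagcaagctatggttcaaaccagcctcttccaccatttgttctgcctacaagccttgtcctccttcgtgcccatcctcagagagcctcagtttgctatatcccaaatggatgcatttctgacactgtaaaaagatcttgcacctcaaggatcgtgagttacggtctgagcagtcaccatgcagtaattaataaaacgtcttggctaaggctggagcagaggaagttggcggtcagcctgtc
Ptgs2: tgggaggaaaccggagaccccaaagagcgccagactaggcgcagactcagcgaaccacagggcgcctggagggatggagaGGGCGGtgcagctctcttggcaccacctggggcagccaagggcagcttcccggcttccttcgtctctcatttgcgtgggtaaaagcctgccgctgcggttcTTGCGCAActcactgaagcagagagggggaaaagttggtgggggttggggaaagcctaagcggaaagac
Ptges: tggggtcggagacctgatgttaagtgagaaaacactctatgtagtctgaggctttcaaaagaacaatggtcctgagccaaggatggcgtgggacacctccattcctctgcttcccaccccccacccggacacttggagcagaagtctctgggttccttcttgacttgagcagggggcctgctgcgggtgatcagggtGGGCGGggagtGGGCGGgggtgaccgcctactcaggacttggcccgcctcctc

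Ptgs2 held 1 GC box and 1 C/EBP-type match, TTGCGCAA, which reads the same on both strands and spans bases 69 to 62 before the start. Ptges held 2 GC boxes, and the Ptgs1 window held no match to the 6 motifs. Of the 9 genes with a RefSeq promoter entry, 5 held a GC box, against 32.7% of 32851 promoter windows of the same length, and 1 held the C/EBP-type motif, against 9.56%. The other motifs were in 0 of the 9, against 17.8% of all windows for TGACG, 6.02% for CACGTG, 4.65% for the NF-kB-type motif and 12.4% for TATAAA. A match describes these letters only, and bases outside the windows, including those after the start, were not searched. The Ptges start used by RefSeq lies 26566 bases inside the longer gene span of the GENCODE annotation. Ptgis was not matched.

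By position (GRCm38, GENCODE M21), 4 of the 10 genes lie on chromosome 2: Ptgds (ENSMUSG00000015090, 25466709 to 25470046), Ptges (ENSMUSG00000050737, 30889471 to 30929863), Ptgs1 (ENSMUSG00000047250, 36230426 to 36252272) and Ptgis (ENSMUSG00000017969, 167191805 to 167240604). Pla2g4a (ENSMUSG00000056220, 149829618 to 149961290, minus strand) and Ptgs2 (ENSMUSG00000032487, 150100031 to 150108227, plus strand) are neighbours on chromosome 1. Their start sites are 138741 bases apart, pointing away from each other, with 0 protein-coding genes between them. Ptger3 (ENSMUSG00000040016) and Ptgfr (ENSMUSG00000028036) lie on chromosome 3, Ptger2 (ENSMUSG00000037759) on chromosome 14 and Ptger4 (ENSMUSG00000039942) on chromosome 15.

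Levels are in TPM, a gene's length-corrected share of all transcripts in a library, and are given as mean ± SD with n = 2. Log2 fold changes (± SE) were taken between group means of log2(TPM + 1), a scale on which low genes appear to change less than they do. Every adjusted p is from 1 limma fit with Benjamini-Hochberg adjustment over the 14166 genes that reached 1 TPM in 2 or more libraries. The comparisons with saline share the same 2 saline libraries. Sequencing depth is unknown, because no counts were used here. Of the 10 genes, 8 passed the filter, and Ptger2 and Ptger3 did not. The 2 libraries labelled APRIL stood apart, with correlations to the other 8 of 0.850 to 0.886, against 0.948 to 0.991 among those 8. Although all mice are labelled male, 4 Y-linked genes summed to 0.489 and 0.775 TPM there and to 93.8 to 123 TPM elsewhere.

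The adipocyte label was borne out in part. Adipoq stood at 100.3 to 1097 TPM and Fabp4 at 1792 to 11802 TPM over the 10 libraries. Plin1 stood at 0.781 to 15.3 TPM, and Lep was under 1 TPM in all. With saline, adipocyte markers summed to 6857 and 7902 TPM and fibroblast and preadipocyte markers to 9408 and 8203 TPM. Smooth muscle and pericyte markers summed to 863 and 969 TPM there. All 9 macrophage markers were present. Their sum was higher in replicate 1 than in replicate 2 of every group, at 1267 and 421 TPM with saline, 1068 and 491 with BAFF, 1609 and 438 with LPS, 1272 and 290.3 with norepinephrine, and 504 and 337 in the libraries labelled APRIL. In bulk RNA, fewer cells of a type and less RNA per cell cannot be told apart.

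With saline, 3 enzymes were the highest of the 10 genes. Pla2g4a stood at 39.97 ± 1.01 TPM, Ptges at 33.3 ± 0.935 and Ptgis, the prostacyclin synthase, at 25.98 ± 1.64. Ptgs1 stood at 11.8 ± 0.831 TPM and Ptgs2 at 4.98 ± 0.405, so the constitutive cyclooxygenase was the higher of the pair. Among the receptors, Ptgfr, which binds prostaglandin F2α, stood at 7.13 ± 1.25 TPM and Ptger4, the EP4 receptor, which raises cAMP, at 2.48 ± 0.346. Ptgds, the lipocalin-type prostaglandin D synthase, was at 1.68 ± 0.0549 TPM. Ptger2 (EP2, which also raises cAMP) and Ptger3 (EP3, which lowers it) were at 0.243 ± 0.156 and 0.256 ± 0.0891 TPM.

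**Figure D1:**
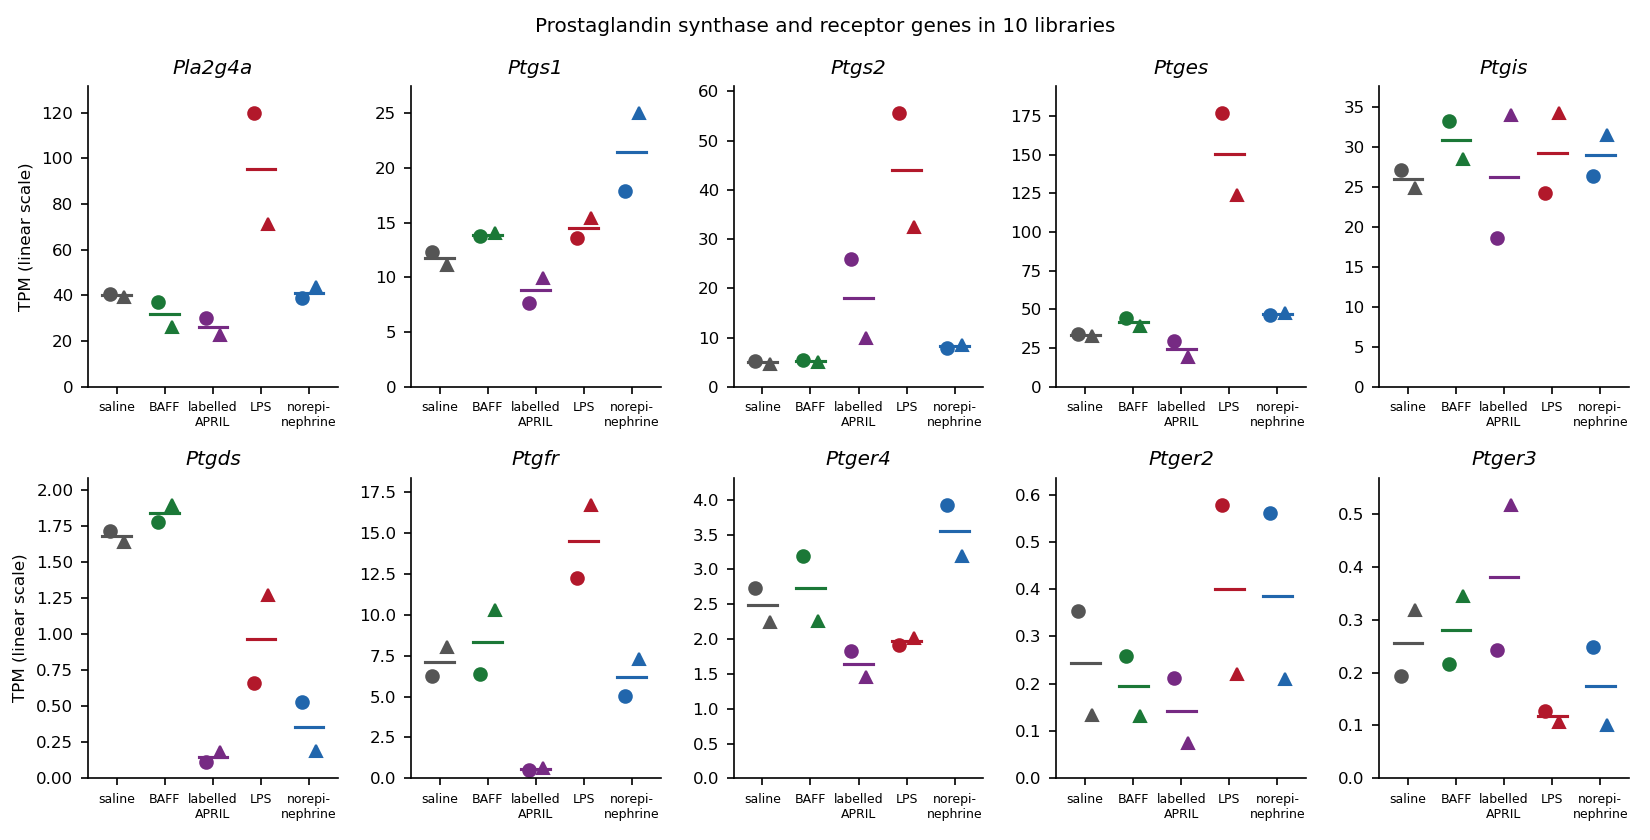
TPM (linear scale, from 0) of the 10 genes in each library, with circles for replicate 1, triangles for replicate 2 and bars for group means of 2 libraries. Ptgs2, Ptges and Pla2g4a are highest in both LPS libraries, Ptgs1 and Ptger4 have their highest means with norepinephrine, and Ptgfr is lowest in both libraries labelled APRIL.

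LPS against saline asked how the cultures responded to a bacterial stimulus, and it raised the inducible cyclooxygenase and the prostaglandin E synthase. Ptgs2 was at 5.27 and 4.70 TPM in the saline libraries and at 55.6 and 32.5 TPM in the LPS libraries, 8.84 times the saline mean (log2 fold change 2.87 ± 0.40, adjusted p = 0.00870). The groups did not overlap, and the LPS libraries held the highest Ptgs2 of all 10. Ptges, the microsomal enzyme that acts after Ptgs2 to make prostaglandin E2, was at 33.9 and 32.6 TPM with saline and at 176.6 and 124 TPM with LPS, 4.52 times the saline mean (log2 fold change 2.12 ± 0.22, adjusted p = 0.00250). No other library exceeded 47.8 TPM of Ptges. These were 2 of 8 tested genes higher and 0 lower, against 2.87% of all 14166 genes called higher, 0.932% lower and 3.80% in either direction. At an unadjusted p under 0.05, where Pla2g4a and Ptgfr joined them, it was 4 of 8, against 16.5% of all genes.

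Pla2g4a, which frees the arachidonic acid, was at 40.7 and 39.3 TPM with saline and at 119.6 and 71.4 TPM with LPS, 2.39 times as much. The groups did not overlap, but the difference missed the threshold (log2 fold change 1.19 ± 0.26, adjusted p = 0.0515). Its side of the threshold depended on the settings. Alternatives in which it passed by limma included a fit without the libraries labelled APRIL (adjusted p = 0.0491) and median-ratio scaling (0.0493). It also passed by limma with a filter of 5 TPM (0.0441) or with the replicate number as a block (0.0262). Ptgfr was at 6.25 and 8.02 TPM with saline and at 12.3 and 16.7 TPM with LPS (log2 fold change 0.92 ± 0.26, adjusted p = 0.108), again without overlap and short of the threshold. With the replicate number as a block in limma, Ptgfr passed (adjusted p = 0.0173).

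Other branches of the pathway showed smaller differences with LPS, none past the threshold. Ptgs1 was at 12.3 and 11.2 TPM with saline and reached 13.6 and 15.4 TPM with LPS (adjusted p = 0.515). Ptgis was at 27.1 and 24.8 TPM with saline and at 24.2 and 34.2 TPM with LPS, so the LPS libraries lay on both sides of the saline ones (adjusted p = 0.875). Ptgds had 1.72 and 1.64 TPM in the saline libraries and 0.663 and 1.27 in the LPS libraries, below both (adjusted p = 0.329). Ptger4 had 2.73 and 2.24 TPM in the saline libraries and 1.92 and 2.02 in the LPS libraries (adjusted p = 0.626). Over the 8 tested genes the median log2 fold change was 0.60, against -0.01 over all tested genes. Both LPS libraries lay above both saline libraries for 5 of the 8, against 24.2% of all genes, and below for 2, against 25.5%.

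**Figure D2:**
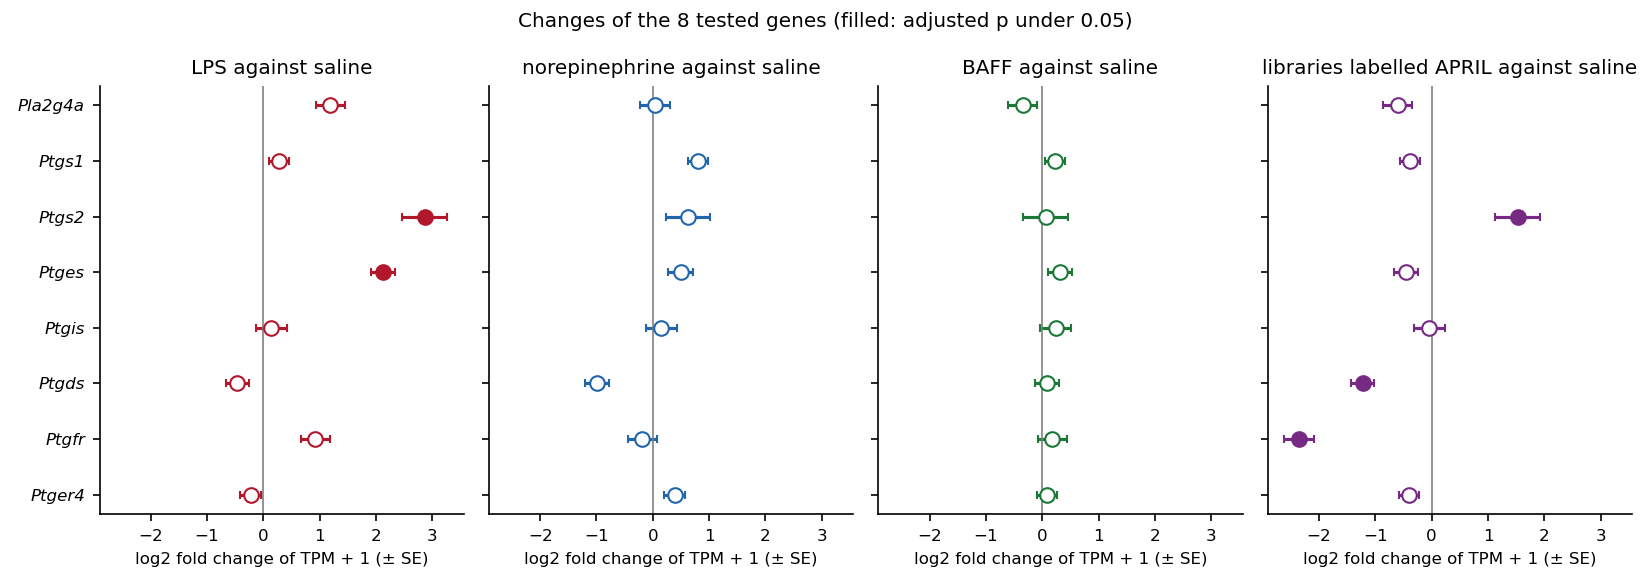
Log2 fold change of TPM + 1 against saline (± SE, limma, n = 2 per group) of the 8 tested genes in 4 comparisons, filled where the adjusted p is under 0.05. With LPS, Ptgs2 (2.87) and Ptges (2.12) pass, none passes with norepinephrine or BAFF, and Ptgs2 (1.52), Ptgds (-1.23) and Ptgfr (-2.36) pass in the libraries labelled APRIL.

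Ratios within a library do not depend on how libraries are scaled. The TPM ratio of Ptgs2 to Ptgs1 was 0.427 and 0.421 with saline, 0.399 and 0.354 with BAFF, and 0.447 and 0.339 with norepinephrine. With LPS it was 4.07 and 2.11, so the order of the cyclooxygenases was the reverse of that with saline in both libraries. The ratio of Ptges to Ptgis was 1.25 and 1.31 with saline and 7.30 and 3.63 with LPS. In the libraries labelled APRIL the first ratio was 3.39 and 0.999 and the second was 1.59 and 0.574. Those replicates disagreed by more than the saline, BAFF or norepinephrine pairs did.

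**Figure D3:**
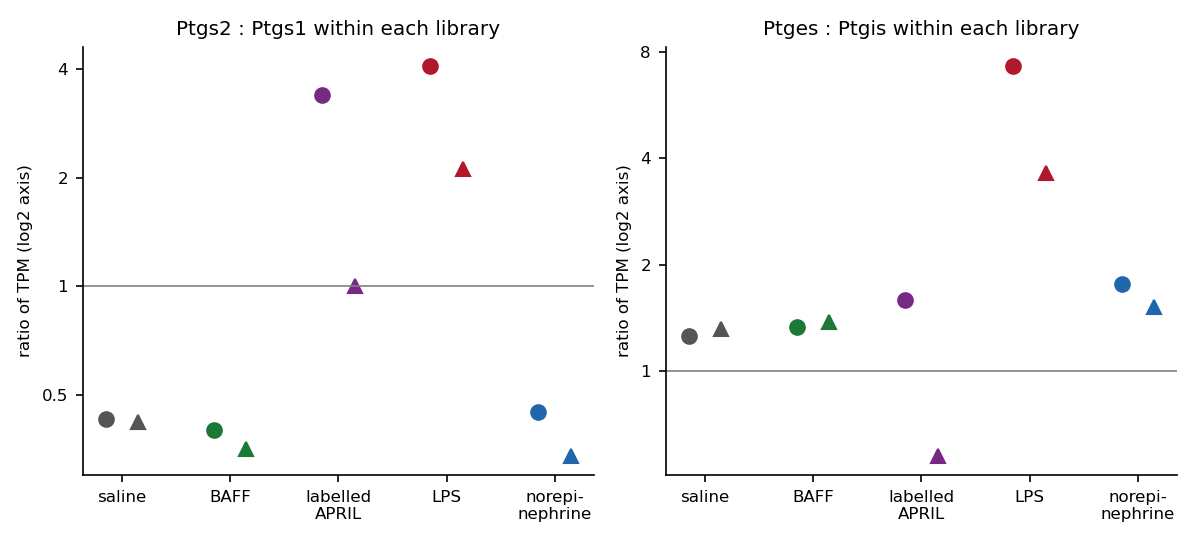
TPM ratios of Ptgs2 to Ptgs1 and of Ptges to Ptgis within each library (log2 axis, circles for replicate 1 and triangles for replicate 2, grey line at equal TPM). Ptgs2 exceeds Ptgs1 in both LPS libraries (4.07 and 2.11) and in 1 library labelled APRIL (3.39), while the saline, BAFF and norepinephrine libraries lie between 0.339 and 0.447.

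The LPS calls were set beside cell type markers. Of 9 macrophage markers 0 passed limma's adjusted threshold in either direction with LPS, against 3.80% of all genes. At an unadjusted p under 0.05, 3 were higher, against 16.5% of all genes in either direction. Those were Cd14 (18.8 TPM with saline and 69.4 with LPS on average, adjusted p = 0.103), Itgam (10.4 and 41.8 TPM, adjusted p = 0.259) and Fcgr1 (0.634 and 2.30 TPM, adjusted p = 0.231). For all 3, both LPS libraries lay above both saline libraries, as for 24.2% of all genes. Fcgr1 reached 1 TPM in the LPS libraries alone, so it was tested only through the group where it was high. The summed marker level, of which Lyz2 made up 304 of 438 TPM in LPS replicate 2, was within the saline range of 421 to 1267 TPM in that library. Its Cd14, Itgam and Fcgr1 were at 40.6, 20.7 and 1.103 TPM, and its Ptgs2 and Ptges at 32.5 and 124 TPM. LPS replicate 1, with a sum of 1609 TPM, had more of Ptgs2, Ptges and Pla2g4a than replicate 2. The saline libraries differed in that sum but held 5.27 and 4.70 TPM of Ptgs2. Neutrophil markers summed to 21.3 and 14.3 TPM with LPS and to 1.62 and 0.468 with saline, nearly all of it S100a8, while S100a9 was listed at 0 in all 10 libraries and Ly6g at 0.194 TPM and 0 with LPS. Platelet markers summed to 263 and 55.5 TPM with LPS and to 16.6 and 11.4 with saline, most of it in the LPS libraries from Pf4 (253 and 51.2 TPM, against 10.8 and 4.14 with saline, adjusted p = 0.0634). Of 5 tested fibroblast and preadipocyte markers 3 rose with LPS (Dcn, Pi16 and Pdgfra), against 2.87% of all genes. Pi16 reached 1 TPM in the LPS libraries alone (3.05 and 2.60 TPM), so it was tested only through the group where it was high. Dpp4, at 5.45 and 0.388 TPM with LPS, was not tested. The abundant Col1a1 and Col3a1 stood at 4934 and 2956 TPM against 5409 and 3177 with saline (adjusted p = 0.799 and 0.899). Of 5 smooth muscle and pericyte markers 2 fell (Myh11 and Cspg4), against 0.932% of all genes. The adipocyte marker sum was 4775 and 5245 TPM with LPS against 6857 and 7902 with saline. The part of these cells in the gene changes was not tested.

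**Figure D4:**
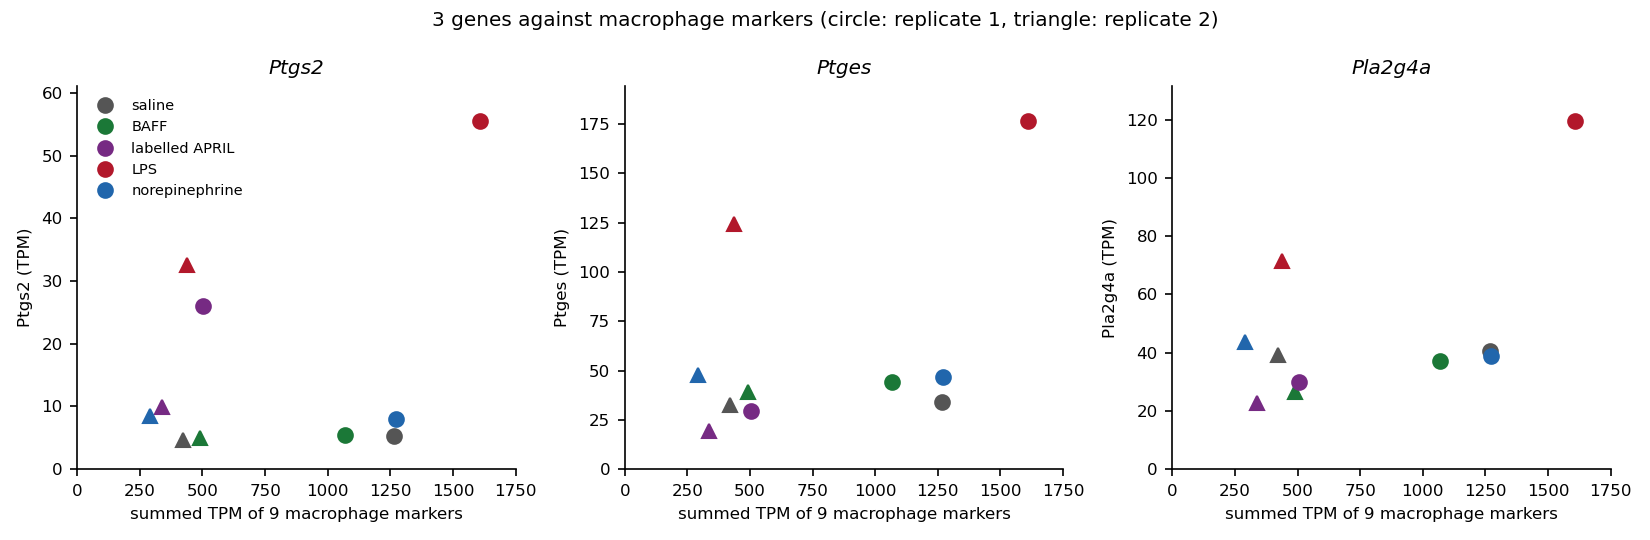
TPM of Ptgs2, Ptges and Pla2g4a in each library (vertical axis) against the summed TPM of 9 macrophage markers (horizontal axis), with circles for replicate 1 and triangles for replicate 2. LPS replicate 2, at 438 TPM of marker, lies above every library without LPS for all 3 genes, and the saline libraries, at 1267 and 421 TPM of marker, hold 5.27 and 4.70 TPM of Ptgs2.

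Leaving out 1 library left the direction of both LPS calls in place and ended that of Ptgs2. Its adjusted p was 0.0571 without saline replicate 1, 0.0763 without saline replicate 2 and 0.0708 without LPS replicate 1, with log2 fold changes of 2.93, 2.80 and 2.49. Ptges passed in 14 of 14 alternatives, with log2 fold changes from 1.87 to 2.37.

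Norepinephrine, the transmitter that drives lipolysis, gave smaller differences from saline and none past the threshold in these genes. Of 8 tested genes 0 were called by limma, against 0.699% of all genes (0.614% as higher, 0.0847% as lower). Those with an unadjusted p under 0.05 were 2, 1 in each direction, against 17.6% of all genes. The higher gene was Ptgs1, at 17.9 and 25.0 TPM against 12.3 and 11.2 with saline, 1.82 times the saline mean (log2 fold change 0.80 ± 0.18, adjusted p = 0.0868). The lower gene was Ptgds, at 0.528 and 0.190 TPM against 1.72 and 1.64 (log2 fold change -0.99 ± 0.21, adjusted p = 0.0755). Neither pair of groups overlapped. Ptgds reached 1 TPM in 5 libraries, none of them with norepinephrine or labelled APRIL, so it was tested only through groups where it was higher. When the libraries labelled APRIL were left out of the limma fit, Ptgs1 (adjusted p = 0.0426) and Ptgds (adjusted p = 0.0442) passed the threshold. That fit also called more of all genes with norepinephrine, as given in the closing section.

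Ptgs2 was at 7.99 and 8.47 TPM with norepinephrine, above both saline libraries and below both LPS libraries (against saline, adjusted p = 0.450). Ptges was at 46.6 and 47.8 TPM (adjusted p = 0.289) and Ptger4 at 3.93 and 3.19 TPM (adjusted p = 0.313), both without overlap with saline. Pla2g4a at 38.9 and 43.6 TPM, Ptgis at 26.4 and 31.5 TPM and Ptgfr at 5.05 and 7.30 TPM overlapped with saline. Both norepinephrine libraries lay above both saline libraries for 4 of the 8, against 34.0% of all genes, and below for 1, against 22.9%. The median log2 fold change of the 8 genes was 0.27, against 0.04 over all tested genes. Adipocyte markers summed to 13340 and 13678 TPM with norepinephrine against 6857 and 7902 with saline, with 0 of 5 past the threshold. Most of that sum was Fabp4 (11596 TPM on average, against 5869 with saline), while Adipoq stood at 926 against 994 TPM and Lep at 0.0234 against 0.632 TPM. The part of these markers in the values above was not tested.

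LPS and norepinephrine, both stimuli of fat cells, were also compared directly. Ptges (log2 fold change 1.63 ± 0.22, adjusted p = 0.00659), Ptgs2 (2.24 ± 0.40, adjusted p = 0.0182), Pla2g4a (1.15 ± 0.26, adjusted p = 0.0394) and Ptgfr (1.11 ± 0.26, adjusted p = 0.0417) were higher with LPS. That is 4 of 8 tested genes, with 0 lower, against 3.62% of all genes higher, 4.19% lower and 7.81% in either direction. An unadjusted p under 0.05 was reached by 7 of the 8, 5 higher and 2 lower, against 25.0% of all genes. Ptgs1 (-0.51 ± 0.18, adjusted p = 0.128) and Ptger4 (-0.61 ± 0.18, adjusted p = 0.0812) were lower with LPS in both libraries without passing. Ptgis stood at 29.2 ± 7.06 TPM with LPS and 28.97 ± 3.62 with norepinephrine, a log2 difference of -0.00438 ± 0.274. Both LPS libraries lay above both norepinephrine libraries for 5 of the 8, against 22.0% of all genes, and below for 2, against 32.8%.

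Of these 4 calls, that of Ptges held in every alternative, with adjusted p up to 0.0474. Ptgs2 lost its call without LPS replicate 1 (adjusted p = 0.0968), norepinephrine replicate 1 (0.0994) or norepinephrine replicate 2 (0.0751). Pla2g4a lost it without the same libraries (0.137, 0.180 and 0.115), from the 4 libraries alone (0.113) and with no filter on low values (0.0863). Ptgfr lost it in 8 of 14 alternatives, with adjusted p up to 0.211.

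BAFF, the ligand named first in the study's title, left the 8 tested genes within a narrow range of saline. By limma 0 of 8 passed, against 0.0141% of all genes, and 0 had an unadjusted p under 0.05, against 2.84% of all genes. Ptgs2 was at 5.50 and 4.98 TPM against 5.27 and 4.70 with saline, and its groups overlapped (log2 fold change 0.06 ± 0.40, adjusted p = 0.998). Ptges was at 44.2 and 39.1 TPM, above both saline libraries (0.31 ± 0.22, adjusted p = 0.996), and Pla2g4a at 36.97 and 26.3 TPM, below both (-0.35 ± 0.26, adjusted p = 0.996). Ptgs1 was at 13.8 and 14.1 TPM and Ptgis at 33.3 and 28.5 TPM, both above saline without passing. Both BAFF libraries lay above both saline libraries for 4 of the 8, against 40.4% of all genes, and below for 1, against 3.76%. The median over all genes was a log2 fold change of 0.11 and became -0.00174 with median-ratio scaling. Ptgds (1.78 and 1.90 TPM), Ptger4 (3.20 and 2.27) and Ptgfr (6.41 and 10.3) completed the 8.

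The libraries labelled APRIL are set against saline with the reservation above. Of 8 tested genes 1 rose and 2 fell, against 33.1% of all genes higher, 25.0% lower and 58.1% in either direction. The count among the 8 depended on scaling, as given below. The count was the same at an unadjusted p under 0.05, against 62.7% of all genes. Ptgs2 was at 26.0 and 9.95 TPM against 5.27 and 4.70 (log2 fold change 1.52 ± 0.40, adjusted p = 0.0119), and the value fell to 0.87 without APRIL replicate 1. Without saline replicate 2 its adjusted p was 0.0565. Ptgfr was at 0.514 and 0.646 TPM against 6.25 and 8.02 (-2.36 ± 0.26, adjusted p = 0.000183), and Ptgds at 0.110 and 0.179 TPM against 1.72 and 1.64 (-1.23 ± 0.21, adjusted p = 0.00159). Both genes were under 1 TPM in these libraries, so they were tested only through groups where they were higher.

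The other 5 tested genes of the 10 did not pass in those libraries. Pla2g4a (29.9 and 22.5 TPM), Ptges (29.5 and 19.5), Ptgs1 (7.67 and 9.96) and Ptger4 (1.83 and 1.45) lay below both saline libraries, with adjusted p of 0.0807, 0.105, 0.0997 and 0.0903. With median-ratio scaling Pla2g4a, Ptges and Ptger4 passed as lower. Ptgis (18.6 and 33.95 TPM) overlapped with saline. In all, both libraries lay above both saline libraries for 1 of the 8, against 42.5% of all genes, and below for 6, against 35.2%. Adipocyte markers summed to 4486 and 2041 TPM and fibroblast markers to 1698 and 2118 TPM in these libraries, against 9408 and 8203 TPM of fibroblast markers with saline, and their part in the differences was not tested.

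Ordered by group mean, Ptgs2 ran from saline through BAFF, norepinephrine and the libraries labelled APRIL to LPS, and among neighbours in that order saline and BAFF overlapped. Ptges ran from the libraries labelled APRIL through saline, BAFF and norepinephrine to LPS, with no overlap between neighbours. Over all 5 groups, 7 of 8 tested genes differed by limma's F test, against 60.4% of all genes, with Ptgis the exception (adjusted p = 0.849). Over the 4 groups without the libraries labelled APRIL, 4 of 8 differed, against 12.0% of all genes: Ptgs2 and Ptges (adjusted p = 0.00414 each), Pla2g4a (0.0385) and Ptgds (0.0457). Ptgs1 (0.0709), Ptger4 (0.164), Ptgfr (0.108) and Ptgis (0.721) did not. As stated above, Ptgds was tested only through groups where it was higher.

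The receptors Ptger2 and Ptger3 were too low to test. Ptger2 ranged from 0.0742 to 0.578 TPM and was higher in replicate 1 than in replicate 2 in all 5 groups, as the macrophage marker sum was. Ptgfr was lower in replicate 1 in all 5 groups. The cause of either pattern was not tested. Ptger3, the receptor best known in adipocytes, ranged from 0.1003 to 0.517 TPM. It was at 0.193 and 0.319 TPM with saline and at 0.128 and 0.107 TPM with LPS. Exons of Ptger4 share 82 bases with the oppositely oriented Ttc33 (up to 53.4 TPM) and 1015 bases with the pseudogene Gm15937, exons of Ptgis share 156 bases with 1110018N20Rik (up to 3.23 TPM), and exons of Ptger2 share 246 bases with Gm17173. Exons of Ptgfr share 329 bases with Gm43618, those of Ptgs1 148 with Gm43621 and those of Ptger2 144 with Gm49364. These last partners are not among the listed genes, so their levels are unknown. Strand use in the quantification is not given in the sources used here, so reads from such overlaps cannot be told apart.

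The wider pathway was read from 6 lists by role, which name 56 further genes, with 55 in the files and 39 tested. With LPS 2 of 39 rose and 0 fell, against 3.80% of all genes called, with a median log2 fold change of 0.11 against -0.01 over all genes. Acsl4, which couples arachidonic acid to coenzyme A, rose with LPS by 0.87 ± 0.11 on the log2 scale, with 24.7 ± 0.646 TPM in saline and 45.9 ± 2.44 in LPS (adjusted p = 0.00603). Pla2g2d, a secreted phospholipase A2, rose by 1.53 ± 0.30, with 1.25 ± 0.197 TPM in saline and 5.91 ± 3.34 in LPS (adjusted p = 0.0352). They were 1 of 9 tested genes of arachidonate supply and 1 of 9 other phospholipases. Of 7 other prostanoid synthases, 3 other receptors, 6 transport and breakdown genes and 5 leukotriene genes 0 passed, and over the 6 lists an unadjusted p under 0.05 was reached by 10 higher genes and 1 lower gene of the 39, against 16.5% of all genes.

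Further genes of these lists had higher means with LPS without passing. The prostacyclin receptor Ptgir, chosen after its values were seen, was at 6.82 ± 1.45 TPM in saline and 17.99 ± 2.80 in LPS (adjusted p = 0.0584). Ltc4s, the leukotriene C4 synthase, was at 52.7 ± 3.33 and 101.7 ± 0.285 TPM (adjusted p = 0.212). Fads2, a desaturase on the route to arachidonic acid, was at 34.0 ± 1.53 and 60.6 ± 10.5 TPM (adjusted p = 0.116), and Mboat7, which places arachidonic acid in phosphatidylinositol, at 32.2 ± 0.578 and 48.2 ± 3.68 TPM (adjusted p = 0.148). The leukotriene A4 hydrolase Lta4h (adjusted p = 0.303) and the reductase Ptgr1 (0.202) did not pass.

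**Figure D5:**
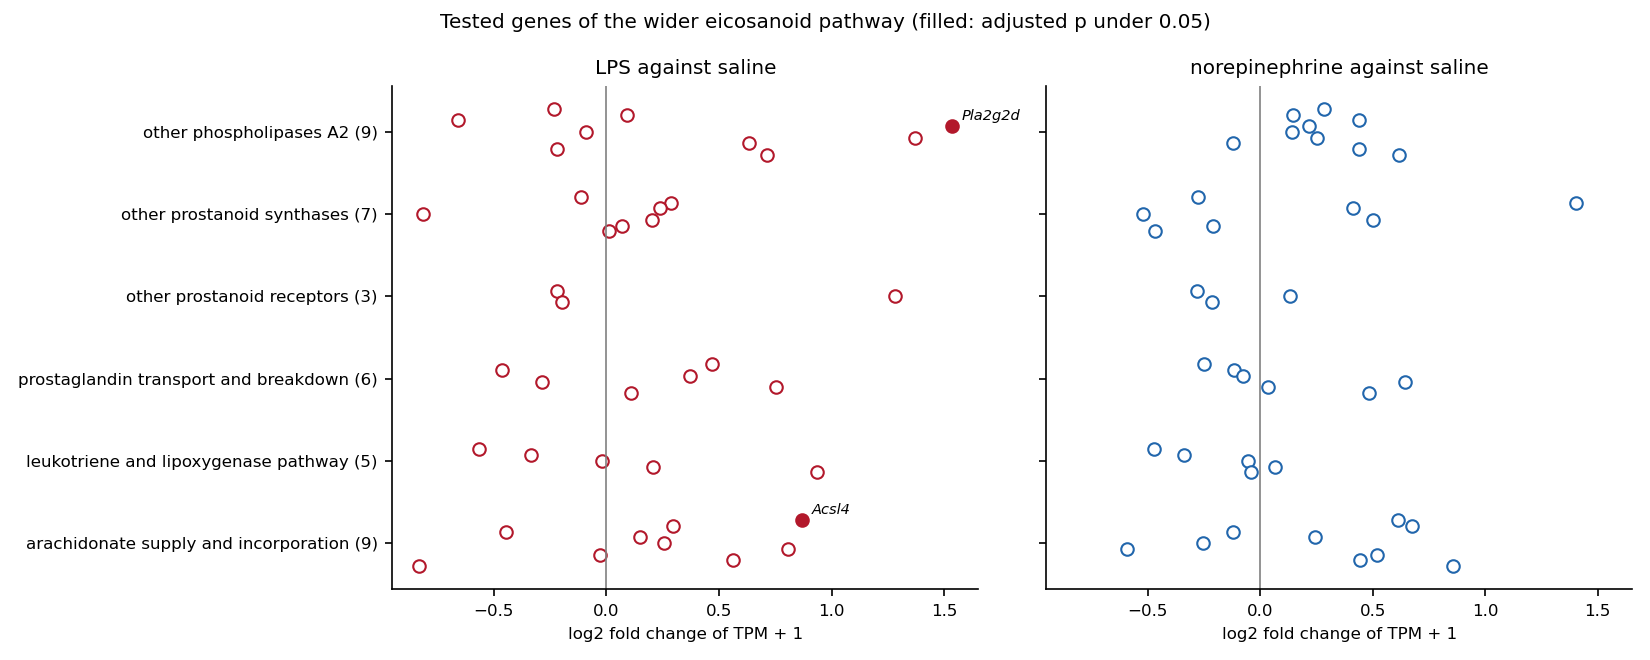
Log2 fold change of TPM + 1 of the 39 tested genes outside the 10, by list (number tested in brackets), with LPS and with norepinephrine against saline, filled where the adjusted p is under 0.05. Acsl4 (0.87) and Pla2g2d (1.53) pass with LPS and 0 genes pass with norepinephrine.

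With norepinephrine 0 of the 39 passed limma's adjusted threshold, against 0.699% of all genes, and 10 higher genes and 1 lower gene had an unadjusted p under 0.05, against 17.6%. With BAFF 0 of 39 passed, against 0.0141%, and 3 higher and 0 lower had an unadjusted p under 0.05, against 2.84%. Acsl4 stood at 38.4 ± 4.08 TPM with norepinephrine (adjusted p = 0.0577) and at 33.8 ± 1.53 with BAFF (adjusted p = 0.996), each above both saline libraries. Cbr1, a carbonyl reductase that can reduce prostaglandin E2 and was chosen after its values were seen, stood at 95.0 ± 4.72 TPM against 35.4 ± 1.37 with saline (adjusted p = 0.0713). Between LPS and norepinephrine 2 of 39 were higher with LPS, Fads2 (adjusted p = 0.0141) and Pla2g2d (0.0402). Lower with LPS were 3: Pla2g6 (adjusted p = 0.0331), a calcium-independent phospholipase, Ptgr2 (0.0394), which reduces 15-keto prostaglandins, and Mgll (0.0456), which frees fatty acid from monoglycerides. Mgll was named after its values were seen. These 5 of 39 stand against 7.81% of all genes. Pla2g16, the phospholipase abundant in adipocytes, stood at 123 ± 6.40 TPM with saline, 77.7 ± 4.65 with LPS and 167 ± 12.4 with norepinephrine.

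In the libraries labelled APRIL 6 of 39 rose and 12 fell, against 33.1% of all genes higher, 25.0% lower and 58.1% in either direction. Pla2g6 (log2 fold change 1.91) and Ptges3 (1.15), a co-chaperone and cytosolic prostaglandin E synthase, rose. Acsl4 rose as well (0.98, to 49.7 ± 2.88 TPM). Tbxa2r (-1.87), the thromboxane receptor, Pla2g2e (-1.76), Pla2g16 (-1.47), Fads1 (-1.56), Zadh2 (-1.52), Ltc4s (-1.27), Akr1b3 (-0.87) and Fam213b (-0.59) fell.

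The genes most like Ptgs2 over the 8 libraries not labelled APRIL, by Pearson correlation of log2(TPM + 1) among 9961 genes with a mean of at least 5 TPM, were Rffl (0.998), Map3k8 (0.996) and H2-K1 (0.993). For Ptges they were H2-K1 (0.996), Il15ra (0.994) and Tapbpl (0.994). H2-K1 stood at 406 TPM with saline and 1428 TPM with LPS on average. For Ptgs1 they were Pde4d (0.999), Ptges2 (0.980) and Tmed5, and for Ptgis Ddx10 (0.967), Prcc (0.951) and Kdm2a (0.943). The points share their treatment groups, 8 points are few for so many genes, and over all 10 libraries the values for Pde4d and Ddx10 were -0.48 and -0.22.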

How the data were processed

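Deposited values are TPM per gene, per the file headers. The authors used kallisto, of unstated version, and name mm10, per the submitters' processing notes. The annotation release, strand setting and summing to genes are not given in the sources used here. TPM holds no counts, so depth is unknown, and each library's listed genes sum to 953553 to 964726 TPM. Symbols came from GENCODE M21, which matched 27458 of 28987 IDs. Values were tested as log2(TPM + 1) with limma 3.58.1 (R 4.3.3, mean-variance trend, 5 group means, 5 residual degrees of freedom), with adjustment over 14166 genes within each of 5 comparisons at 0.05, and the fit was tested on simulated data. Groups follow the titles. The members and lists were chosen with earlier results of these data known. All 10 members were named, with up to 4 genes of each wider list past 0.05 in any comparison, smallest p first. Promoters came from RefSeq (GRCm38.p6), and figures were drawn with matplotlib 3.10.9. Alternatives covered pseudocounts, filters, scaling, trend, block and left-out libraries.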

Additional observations from a re-analysis of the deposited data

How the results depend on the processing

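Depth could not be assessed from TPM, and 2 libraries per group limit every call. No called fold change of the 8 tested genes changed sign. Of their recomputed values 505 kept their side of the threshold, 16 gained a call and 21 lost one. Calls over all genes were 539 with LPS, 99 with norepinephrine, 2 with BAFF, 8236 in the libraries labelled APRIL and 1107 between LPS and norepinephrine. With a pseudocount of 0.1, norepinephrine gave 43 and BAFF 0. With no filter, norepinephrine gave 55, BAFF 12 and LPS against norepinephrine 719, and of the 8 genes 2 passed between LPS and norepinephrine and 2 differed over 4 groups. Norepinephrine gave 65 without mitochondrially encoded genes and 62 without the trend. Median-ratio scaling gave 6 of the 8 genes in the libraries labelled APRIL, against 3. From the 4 compared libraries alone LPS gave 226, BAFF 0 and LPS against norepinephrine 628, with 2 of the 8 genes. Without the libraries labelled APRIL, LPS gave 922, norepinephrine 843, with 2 of the 8 genes, and LPS against norepinephrine 2176. A pseudocount of 0.1 moved Ptgds in the libraries labelled APRIL from -1.23 to -2.88. Leaving out 1 library at a time, all-gene calls ran from 112 to 374 with LPS, 0 to 1 with norepinephrine, 2 to 4 with BAFF, 6392 to 8210 for the label APRIL and 245 to 452 between LPS and norepinephrine. Of the 8 genes 1 to 3, 0 to 0, 0 to 0, 2 to 4 and 1 to 3 passed in the same order, 6 to 7 differed over 5 groups and 2 to 4 over 4 groups. With the replicate number as a block, 4 of the 8 genes passed with LPS (Pla2g4a and Ptgfr added, adjusted p = 0.0262 and 0.0173), 5 passed in the libraries labelled APRIL, and norepinephrine gave 167 genes. Where no all-gene count of the same fit is given, a count of the 8 genes describes that setting only. Deviations of same-numbered libraries correlated at 0.272 to 0.479 between the other 4 groups and at -0.108 to 0.0264 with the libraries labelled APRIL. There are only 2 numbers and no label of a shared animal, day or batch, so the main fit left the number out. What same-numbered libraries share is not known, and the main p-values do not allow for it. The cause of these differences was not tested.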
